A study of Mus musculus with 14 samples.

Results

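Cortex sampled at 7 d after cerebral venous sinus thrombosis (CVST) was compared with cortex sampled at 2 d, to describe which transcripts had subsided and which had accumulated between the times. The comparison used 10 of the 14 mouse samples of the series, 5 CVST-7d and 5 CVST-2d, chosen by their labels. It covered 16331 genes that passed a filter on low counts, of 55359 Ensembl genes in the count table. CVST is a clot in the sinuses that drain the brain. Total RNA from the cerebral cortex of both hemispheres of mice was sequenced in 5 samples at 2 d (CVST-2d), 5 at 7 d (CVST-7d) and 4 after sham treatment. The labels state neither strain, sex, age, the way the clot was made nor when sham cortex was taken, so the sham samples serve below only as a reference level. The samples are numbered within each group but are not stated to come from separate animals, so the p-values measure the spread between these samples, which may be partly technical.

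When venous outflow from the cortex is blocked, pressure rises in veins and capillaries, plasma and red cells can leave the vessels, and tissue perfusion falls. Endothelium, astrocytes and neurons respond early with adhesion molecules, stress proteins and signalling through the interleukin-6 receptor family and STAT3. Microglia, infiltrating myeloid cells, matrix-forming cells and oligodendrocyte precursors dominate the later clearance and repair of injured brain tissue.

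Gene counts summed to between 14696104 and 20798651 per library. Levels are given below as CPM (depth-scaled counts, with TMM normalisation across the 14 libraries), and a count of 0 in a library allows up to 0.14 to 0.209 CPM (3 counts, counting error only). Excitatory cortical neuron markers were high in every library, with Slc17a7 at 894 to 1572 CPM in the CVST samples. On the axis of largest variance (33.1% of log2 CPM), CVST-2d-5 and CVST-7d-2 lay near sham. Their scores were -26.7 and -26.9, against -48.2 to -27.3 in sham and 1.48 to 49.1 in the other CVST samples. The second component, with 14.9%, separated the times, at 0.0289 to 42.4 for 2 d and -38.6 to -9.66 for 7 d. Striatal markers were high in CVST-2d-5 and CVST-7d-5 (mean log2 CPM 1.10 and 1.32 above the sham mean, against -1.74 to -0.61 in the other CVST samples), as in 2 of 4 sham samples, and their part in the results was not tested. List medians over 0.1 in size that moved by over 1.5 times without CVST-2d-5 or CVST-7d-5 are given with and without that library. In bulk cortex, fewer cells of a type and less RNA per cell cannot be told apart.

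Between 2 d and 7 d, 81 genes changed (0.496% of genes tested), of which 55 rose (0.337%) and 26 fell (0.159%), by edgeR's quasi-likelihood test at a Benjamini-Hochberg adjusted p under 0.05. In all 81 the 5 samples of one time did not overlap the 5 of the other, where 2.29% of all genes tested had every 7 d sample above every 2 d sample and 2.19% every 7 d sample below. Genes called from 5 against 5 samples were likely to be without overlap from the start, so this adds no support. The 26 falling genes had a median log2 fold change of -1.18, and in 24 of them the 2 d mean lay above the sham range. The 55 rising genes had a median of 1.00, and in 38 of them the 2 d mean lay below the sham range. Their 7 d mean was above the sham range in 43 and within it in 12. At an unadjusted p under 0.05, 1489 genes were higher (9.12%) and 1510 lower (9.25%).

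**Figure D1:**
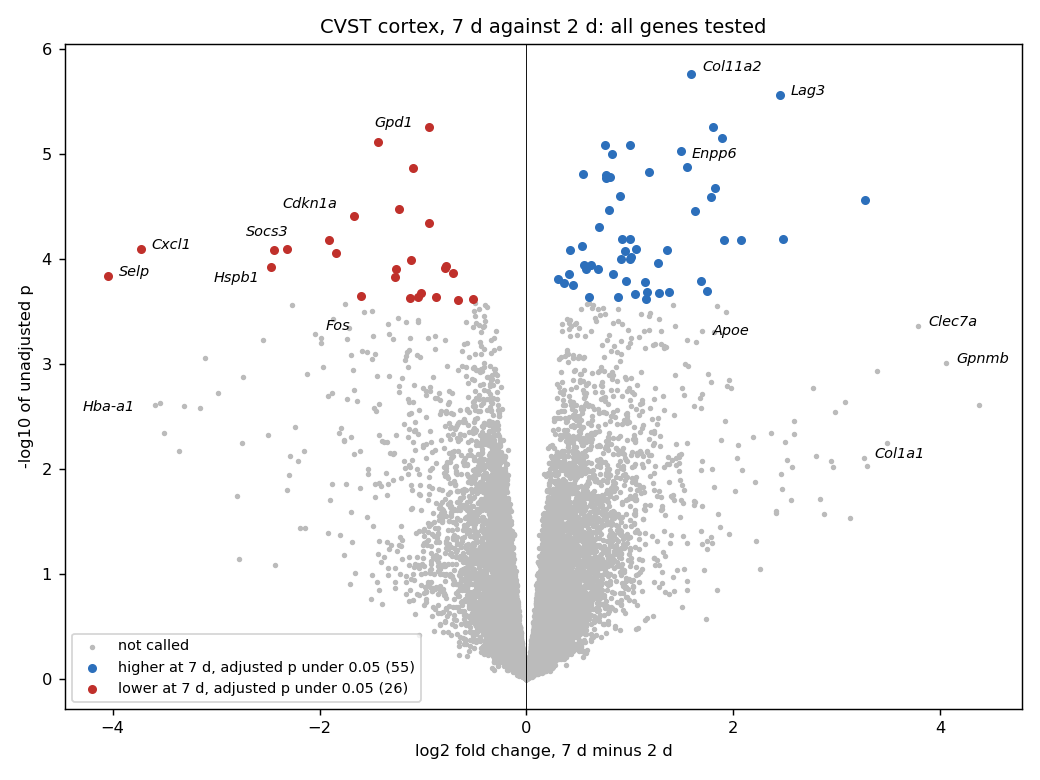
Each point is 1 of 16331 genes, with the log2 fold change at 7 d against 2 d on the x axis and -log10 of the unadjusted p on the y axis; blue points rose and red points fell at an adjusted p under 0.05. The 26 red points reach a log2 fold change of -4.04 (Selp) and the 55 blue points 3.27, while several genes with large differences, such as Gpnmb and Clec7a, lie below the called points.

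The number of calls depended on which libraries entered. Without CVST-2d-5 it rose to 312 higher (1.89%) and 380 lower (2.3%), and without CVST-2d-5 and CVST-7d-2 together to 172 higher (1.05%) and 155 lower (0.944%). Without CVST-2d-1, 2, 3 or 4 it was 1, 19, 12 and 15 higher and 1, 7, 7 and 4 lower. Without CVST-7d-1, 2, 3, 4 or 5 it was 15, 45, 20, 20 and 30 higher and 2, 7, 6, 4 and 16 lower. Fitted together with the sham samples, the same contrast called 261 higher (1.54%) and 212 lower (1.25%), which held 54 of the 55 and 26 of the 26. DESeq2 called 438 higher (2.68%) and 408 lower (2.5%), and limma voom with sample weights 346 higher (2.12%) and 364 lower (2.23%). All 81 genes kept their direction under every setting in which they were tested. As their 2 d and 7 d samples did not overlap, a turn of direction was unlikely from the start, so this adds no support.

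Selp, Lrg1 and Apold1, genes of activated endothelium, the state in which vessel walls capture leukocytes and promote clotting, fell between the times. Of 20 measured genes of activated endothelium and haemostasis 3 fell (Selp, Lrg1 and Apold1) and 0 rose by edgeR, with 9 lower and 0 higher at an unadjusted p under 0.05. Their median log2 fold change was -0.69, beside 0.01 over all genes tested, and 4 of the 20 had a positive difference. Without CVST-7d-5 the median was -1.10 and 2 were called. DESeq2 called 6 lower and limma voom 7 lower, with 0 higher by either.

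Selp encodes P-selectin, the adhesion receptor with which endothelium and platelets tether leukocytes. It measured 1.37, 7.16, 1.5, 2.31 and 0.636 CPM in CVST-2d-1 to 5 and 0.0696, 0.127, 0.229, 0.0557 and 0.262 CPM in CVST-7d-1 to 5, against 0 to 0.353 CPM in sham. All 7 d samples lay below all 2 d samples and below the highest sham sample, and the log2 fold change was -4.04 ± 0.73 (SE, adjusted p = 0.0398). The 7 d values stand on a few counts each, and Selp overlaps antisense gene models, from which its reads cannot be told apart in a count without stated strand. Lrg1, a secreted leucine-rich glycoprotein linked to vessel growth, measured 5.31, 9.32, 5.75, 6.76 and 4.92 CPM at 2 d and 1.74, 0.633, 1.55, 2.45 and 2.09 CPM at 7 d. Sham samples spanned 0.65 to 3.28 CPM, so the 7 d samples lay within or just under the sham range and the 2 d samples above it (-1.91 ± 0.31, adjusted p = 0.0329).

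Apold1, an early-response gene of vascular endothelium, ended below its sham level. At 2 d it measured 5.42, 10.4, 6.21, 8.58 and 8.44 CPM, and at 7 d 3.2, 2.97, 3.43, 3.57 and 3.4 CPM. Every 2 d sample was above and every 7 d sample below the sham range of 4.2 to 5.11 CPM (-1.23 ± 0.19, adjusted p = 0.0239). Ly6a (Sca-1), a membrane-anchored surface protein found on brain endothelium, measured 40.4, 56.6, 41.5, 34.1 and 46.3 CPM at 2 d and 19.6, 16.3, 21.2, 26.1 and 18.8 CPM at 7 d, the latter inside the sham range of 14.6 to 27.6 CPM (-1.10 ± 0.15, adjusted p = 0.0163). Ctla2a, an inhibitor of cathepsin-type proteases, fell by 1.60 ± 0.30 (adjusted p = 0.049) from 16.3 to 37.2 CPM at 2 d to 4.74 to 10.9 CPM at 7 d, where 4 of 5 samples were still above the sham maximum of 5.29 CPM. Vwf, the clotting factor that binds platelets, had a difference of -1.06 ± 0.24 (adjusted p = 0.0639) and did not pass. The 14 blood-brain barrier endothelium genes, which mark resting brain vessels, had a median of -0.10 and 0 calls by edgeR (3 higher and 3 lower at an unadjusted p under 0.05, 3 and 2 by DESeq2, 2 and 2 by voom).

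Signalling through gp130, the shared receptor chain of the interleukin-6 family, was represented by Socs3, its STAT3-induced feedback inhibitor. Socs3 measured 24.7, 38.1, 21.7, 53.3 and 12.7 CPM at 2 d and 3.83, 2.78, 5.15, 6.08 and 9.74 CPM at 7 d. The groups did not overlap, and at 7 d 4 of 5 samples lay above the sham range of 3.03 to 3.82 CPM, CVST-7d-1 only just (-2.44 ± 0.41, adjusted p = 0.033). It was the 1 call among 13 measured gp130 and acute-phase genes, whose median was -0.95, with 6 lower and 0 higher at an unadjusted p under 0.05. The median was -0.56 without CVST-2d-5 and -0.41 without CVST-2d-5 and CVST-7d-2. Stat3 itself (-0.95 ± 0.20, adjusted p = 0.057) and Ptx3, a soluble pattern recognition protein (-3.10 ± 0.70, adjusted p = 0.0652), passed in the fit with sham (adjusted p = 0.0165 and 0.0194) but not in the fit of the CVST samples alone.

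Promoter sequences are printed for Socs3 and Apold1 because both fell and both hold the palindrome TTCNNNGAA, the core to which activated STAT dimers bind. The motif was chosen after the values were seen. Sequences are RefSeq windows on GRCm38.p6 from 250 bases before to 50 after an annotated start, 5′ to 3′ on the gene's strand, with the match in capitals. The Socs3 window lies at chr11:117969317-117969616 on the minus strand, with the match beginning 154 bases before the start. The Apold1 window lies at chr6:134981751-134982050 on the plus strand, with the match 83 bases before the start.
Socs3: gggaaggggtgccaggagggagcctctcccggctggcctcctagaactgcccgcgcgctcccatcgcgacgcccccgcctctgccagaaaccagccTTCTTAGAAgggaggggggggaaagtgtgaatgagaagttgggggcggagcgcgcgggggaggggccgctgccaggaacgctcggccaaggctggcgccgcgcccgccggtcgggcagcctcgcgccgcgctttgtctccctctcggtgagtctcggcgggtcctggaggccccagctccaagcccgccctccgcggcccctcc
Apold1: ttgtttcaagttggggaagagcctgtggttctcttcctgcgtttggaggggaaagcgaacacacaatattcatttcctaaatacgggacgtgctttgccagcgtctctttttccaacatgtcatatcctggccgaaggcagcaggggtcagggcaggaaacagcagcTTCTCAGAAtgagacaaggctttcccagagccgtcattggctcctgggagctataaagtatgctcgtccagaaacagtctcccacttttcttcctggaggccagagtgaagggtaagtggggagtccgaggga
The motif was searched on both strands. Of 26 falling genes 21 had a window, and 5 of their 31 windows held it (16.1%; Apold1, Ctla2a, Maff and Socs3), as did 6 of 46 windows of rising genes and 7.69% of the 21263 windows of all protein-coding genes. A match in these letters is a description and not a binding site.

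The lists of heat shock and stress, of p53 and cell death and of hypoxia and glycolysis each held 1 falling gene. Hspb1, the small heat shock protein of stressed astrocytes and vessels, measured 42.3, 24.2, 10.9, 44.2 and 11.3 CPM at 2 d and 3.48, 2.78, 6.12, 5.02 and 6.44 CPM at 7 d. The 7 d values lay below the sham maximum of 7 CPM, and the lowest 2 d sample was above it (-2.47 ± 0.43, adjusted p = 0.0373). Hspb1 was the 1 call among 15 heat shock and stress genes, of which 15 had a negative and 0 a positive difference (median -0.39, 7 lower at an unadjusted p under 0.05). DESeq2 and voom each called 5 of them lower, and the fit with sham 4. Xbp1 (-0.50 ± 0.10, adjusted p = 0.0506) and Atf4 (-0.51 ± 0.12, adjusted p = 0.0728), transcription factors of the unfolded protein and integrated stress responses, came closest to passing among the rest.

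Cdkn1a (p21), the cyclin-dependent kinase inhibitor induced by p53, measured 50.2, 36.2, 34.3, 74.7 and 51.7 CPM at 2 d and 18, 9.43, 13.3, 14.4 and 22.6 CPM at 7 d. Sham samples lay at 15.6 to 20.9 CPM, so 3 of 5 samples at 7 d were below the sham range and 1 above it (-1.66 ± 0.26, adjusted p = 0.0251). No other member of the 20 p53 and cell death genes was called, and their median was -0.10, or -0.20 without CVST-7d-5. Ldha, lactate dehydrogenase A of glycolysis, measured 418, 288, 317, 392 and 292 CPM at 2 d and 218, 215, 233, 176 and 237 CPM at 7 d. All 7 d samples were below the sham minimum of 249 CPM (-0.66 ± 0.13, adjusted p = 0.04997). Gpd1, the cytosolic dehydrogenase that links glycolysis to glycerol phosphate, measured 164, 133, 136, 161 and 113 CPM at 2 d against 79.8, 69.9, 61.3, 84.8 and 70.7 CPM at 7 d, with every 2 d sample above the sham maximum of 105 CPM (-0.95 ± 0.12, adjusted p = 0.0162). Of 18 hypoxia and glycolysis genes 1 was called (Ldha), with a median of -0.29 and 10 lower and 0 higher at an unadjusted p under 0.05.

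Among inflammatory mediators the neutrophil chemokine Cxcl1 fell. It measured 0.766, 5.24, 1.77, 1.04 and 1.74 CPM at 2 d and 0.139, 0.127, 0.286, 0.167 and 0.0524 CPM at 7 d, against 0 to 0.118 CPM in sham (-3.73 ± 0.63, adjusted p = 0.033). At 7 d these values are within a few counts of 0. The other 18 measured chemokines and cytokines were not called. Over the 19, 1 was higher and 4 were lower at an unadjusted p under 0.05. Their median was 0.14, but -0.69 without CVST-7d-5 and -0.75 by voom. Ccl2, the monocyte chemokine, measured 1.27 to 12.8 CPM at 2 d and 0.0633 to 4.66 CPM at 7 d (-1.76 ± 0.87, adjusted p = 0.305). Ccl5, a T cell chemokine, was at 0 in all 4 sham samples and measured 0 to 1.08 CPM at 2 d and 0.316 to 2.17 CPM at 7 d (1.74 ± 0.79, adjusted p = 0.27).

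**Figure D2:**
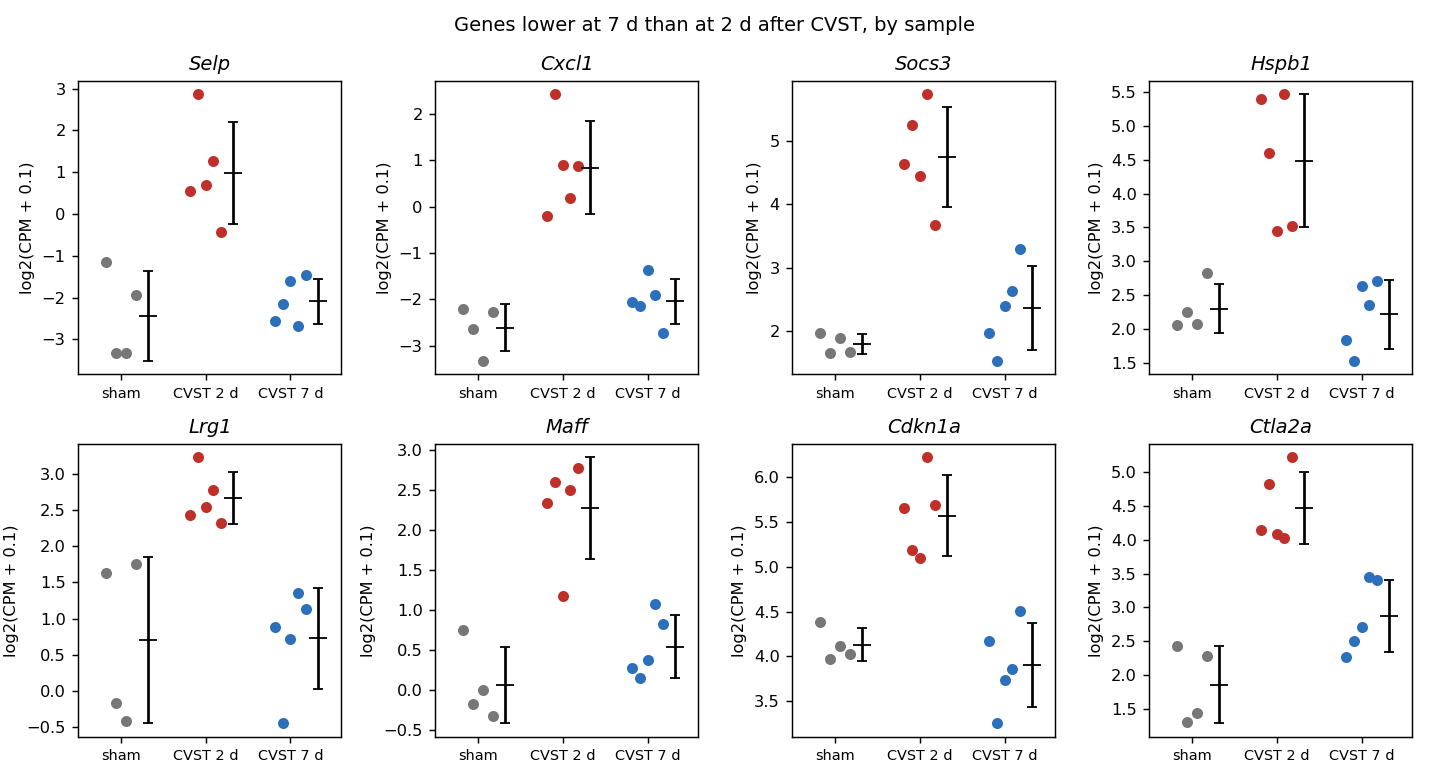
Points are single samples of sham (grey, n = 4), CVST 2 d (red, n = 5) and CVST 7 d (blue, n = 5) for 8 falling genes, on a log2(CPM + 0.1) axis with the mean and SD beside each group. Every 7 d sample lies below every 2 d sample of the same gene. Samples at 7 d reach into the sham range for Selp, Cxcl1, Hspb1, Lrg1, Maff, Cdkn1a and Ctla2a, and lie on both sides of it for Socs3.

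Other falling genes of the largest size were Trim72, a membrane repair protein (-2.32 ± 0.39), Maff, a small Maf transcription factor (-1.84 ± 0.31), Prg4, the lubricating proteoglycan (-1.27 ± 0.23), and Mrps6, a mitochondrial ribosome subunit (-1.26 ± 0.22), at adjusted p of 0.033, 0.0343, 0.0405 and 0.0373. Mrps6 shares exons with the inositol transporter gene Slc5a3 on the same strand, so its reads are uncertain. In all, 32 of the 81 genes overlap an exon of another annotated gene. Among them, Prg4 overlaps the protein-coding gene Tpr on the other strand and Ctla2a overlaps protein-coding models on the same strand. Of the 81 genes, 39 were counted under an assembled locus joined to the Ensembl gene, among them Col11a2, Appl2, Dnah7b and Ldha. The part of these loci in the counts was not tested. The non-coding Gm33228 (-1.43 ± 0.19, adjusted p = 0.0162) was the 1 falling gene called in each of the 10 fits that left out a library. Gpd1 was called in 9 of these fits, Ly6a in 8, Cdkn1a in 5, Apold1 in 4 and Lrg1 in 3. Selp, Cxcl1, Hspb1, Socs3, Maff and Prg4 were each called in 2, and Trim72, Ctla2a, Mrps6, Ldha, Dusp5 and Spry4 in 1.

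Activity-regulated genes lay below the sham samples at 7 d. Dusp5 and Spry4 dampen ERK signalling and are induced by it. Dusp5 measured 18.1, 15, 15.2, 22.4 and 12.1 CPM at 2 d and 5.99, 9.94, 9.79, 8.19 and 6.13 CPM at 7 d, with all 7 d samples below the sham minimum of 10.7 CPM (-1.05 ± 0.20, adjusted p = 0.049). Spry4 measured 10.5, 13.2, 11.2, 12.4 and 9.37 CPM at 2 d and 7.17, 6.2, 7.84, 6.86 and 6.65 CPM at 7 d. Its sham range was 11.7 to 18.5 CPM, so its mean already lay below sham at 2 d and was lower still at 7 d (-0.71 ± 0.13, adjusted p = 0.0393).

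They were the 2 called of 14 late-response activity genes, all of which had a negative difference (median -0.67, 12 lower at an unadjusted p under 0.05). Immediate early genes, the first transcription factors and effectors switched on by synaptic activity, had 0 of 17 called by edgeR (15 with a negative difference), against 10 lower and 0 higher at an unadjusted p under 0.05, 7 lower by DESeq2, 4 by voom and 6 in the fit with sham. Fos measured 19.1, 39.8, 19.9, 68.2 and 13.5 CPM at 2 d and 6.13, 4.49, 8.36, 10.8 and 9.06 CPM at 7 d. Each 7 d sample was below each 2 d and each sham sample (22.3 to 25.8 CPM), but the spread at 2 d was wide (-2.04 ± 0.43, adjusted p = 0.0563). Arc, the synaptic scaffold that removes AMPA receptors, had a difference of -1.48 ± 0.31 (adjusted p = 0.0568), and Nr4a1, which was below its sham range of 66.9 to 106 CPM at both times, one of -0.52 ± 0.17 (adjusted p = 0.154). The mean log2 CPM of the immediate early list, relative to sham, ran from -0.70 to 0.42 at 2 d and from -1.37 to -0.82 at 7 d.

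Neuronal identity lists had median differences near 0. Excitatory cortical neuron markers (15 genes, median 0.03), synaptic transmission (26 genes, median 0.08), ion channels (19 genes, median 0.04) and inhibitory interneurons (16 genes, median -0.13) had 0 calls by edgeR and by DESeq2, and voom called 1 excitatory marker higher. At an unadjusted p under 0.05, 1 synaptic gene was higher and 1 lower, 2 interneuron genes were lower, and 0 of the others passed. Of the 16 interneuron genes 13 had a negative and 3 a positive difference. Their mean log2 CPM relative to sham was -0.30 at 2 d and -0.41 at 7 d. The interneuron median was -0.06 without CVST-2d-5 and -0.20 without CVST-7d-5, and the medians of excitatory markers and synaptic transmission were 0.12 and 0.15 without CVST-7d-5. Slc17a7, the vesicular glutamate transporter, measured 1572, 1208, 1398, 1354 and 1119.7 CPM at 2 d and 1345, 1465, 1206, 894 and 984 CPM at 7 d (-0.17 ± 0.15, adjusted p = 0.544). Cort, the neuropeptide cortistatin, was below the sham range of 3.93 to 7.15 CPM in all 10 samples, at 1.32 to 2.72 CPM at 2 d and 0.785 to 1.95 CPM at 7 d (-0.53 ± 0.28, adjusted p = 0.337).

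Both proliferation lists were lower at 7 d on average, without a member called by edgeR. Outside these lists Pold2, a DNA polymerase subunit, fell (-0.52 ± 0.10, adjusted p = 0.0491, called in 1 of the 10 fits without a library). Of 24 DNA replication genes 24 had a negative difference (median -0.58), with 0 called by edgeR, an unadjusted p under 0.05 in 10, and 3 called by DESeq2 and 5 by voom, all lower. Of 25 mitosis and cytokinesis genes 24 had a negative difference (median -0.85), with 0 called by edgeR, DESeq2 or voom, and 2 lower and 1 higher at an unadjusted p under 0.05. Mki67, the marker of cycling cells, measured 17.1, 26.7, 20.8, 23.2 and 2.02 CPM at 2 d and 4.6, 3.48, 3.43, 9.09 and 27.6 CPM at 7 d, with sham at 1.24 to 1.82 CPM (-0.89 ± 0.68, adjusted p = 0.502). CVST-2d-5 was near sham and CVST-7d-5 as high as the highest 2 d sample, so the groups overlapped through these libraries. Without CVST-7d-5 the difference was -1.80 (adjusted p = 0.161), and without CVST-2d-5 it was -1.18 (adjusted p = 0.228). Without CVST-2d-5, 7 DNA replication genes and 0 mitosis genes were called lower by edgeR.

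Reactive astrocyte genes, which label astrocytes responding to injury, behaved unequally. Hspb1 was the 1 called of 27, with a median of -0.60 and 11 lower and 0 higher at an unadjusted p under 0.05. DESeq2 called 5 lower, voom 6, the fit with sham 5 and the fit without CVST-2d-5 7. Gfap, their intermediate filament, measured 1590, 1668, 1122, 1689 and 544 CPM at 2 d and 611, 771, 984, 2232 and 716 CPM at 7 d, far above sham (128 to 181 CPM) at both times (-0.31 ± 0.39, adjusted p = 0.697). Serpina3n, an astrocytic protease inhibitor, measured 80.9 to 345 CPM at 2 d and 54.4 to 231 CPM at 7 d (-0.99 ± 0.42, adjusted p = 0.24). Tgm1, a transglutaminase, was nearly absent in sham (0 to 0.0588 CPM) and measured 22.3, 85, 36.9, 45.6 and 2.02 CPM at 2 d and 1.18, 0, 4.06, 8.25 and 2.67 CPM at 7 d, with overlap through CVST-2d-5 (-3.54 ± 0.91, adjusted p = 0.0956).

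Red cell transcripts were also lower at 7 d without a call. Of 6 red cell and platelet genes 0 were called by edgeR or voom, 5 by DESeq2, and 5 were lower at an unadjusted p under 0.05 (median -3.33). Their summed level was 28.4 to 393 CPM at 2 d, 3.80 to 34 CPM at 7 d and 5.6 to 26.5 CPM in sham, and none was at 0 in a whole group. Hba-a1, alpha-globin, measured 7.39, 93.2, 32.6, 6.38 and 6.71 CPM at 2 d and 6.48, 0.38, 0.744, 2.06 and 2.62 CPM at 7 d (-3.59 ± 0.93, adjusted p = 0.0963), and without CVST-2d-2 the difference was -2.44 (adjusted p = 0.155). Hmox1, which opens the haem ring, measured 12.8 to 167 CPM at 2 d and 5.7 to 71.6 CPM at 7 d against 2.65 to 4.05 CPM in sham (-0.99 ± 0.72, adjusted p = 0.481). The part of residual blood in these values was not tested.

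Among the genes that rose, Lag3 was the 1 called in each of the 10 fits that left out a library. Lag3 encodes an immune checkpoint receptor that binds MHC class II. It measured 5.47, 3.04, 3.4, 3.57 and 2.83 CPM at 2 d and 22.6, 11.5, 12.7, 28.5 and 24.7 CPM at 7 d, against 2.53 to 4.84 CPM in sham. The 2 d samples lay at the sham level and every 7 d sample was above the highest sham and 2 d samples (2.45 ± 0.29, adjusted p = 0.0162).

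Enpp6, a choline phosphodiesterase that marks newly forming oligodendrocytes, showed the same order of levels. It measured 7.6, 8.57, 7.78, 7.64 and 7.11 CPM at 2 d and 20.3, 19.3, 13.2, 31.9 and 24.5 CPM at 7 d, with sham at 5.45 to 12.2 CPM. All 7 d samples, CVST-7d-2 included, lay above all 9 other samples (1.5 ± 0.20, adjusted p = 0.0162, called in 9 of the 10 fits without a library). Of 15 measured genes of oligodendrocyte precursors and new oligodendrocytes Enpp6 was the 1 call, with 7 higher and 0 lower at an unadjusted p under 0.05, and in 5 all 7 d samples were above all 2 d samples (median 0.29, or 0.14 without CVST-7d-5). In the fit with sham 5 were called, adding Tcf7l2, a transcription factor of differentiating oligodendrocytes, Gpr17, a receptor of committed precursors, Bmp4, a growth factor they secrete, and Ptprz1, a receptor phosphatase of precursors and astrocytes. In the fit of CVST samples alone Tcf7l2 (0.98 ± 0.20, adjusted p = 0.0544), Gpr17 (1.33 ± 0.29, adjusted p = 0.0601) and Bmp4 (1.15 ± 0.25, adjusted p = 0.061) did not pass. Gpr17 measured 35.8, 46.1, 43.3, 18.2 and 52.3 CPM at 2 d and 77.2, 162, 69.9, 99.5 and 82.3 CPM at 7 d, so that 2 d samples lay below and 7 d samples above the sham range of 53.2 to 65.8 CPM.

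Myelin genes of mature oligodendrocytes had 0 of 15 called by edgeR or voom and 4 higher by DESeq2, with 7 higher and 0 lower at an unadjusted p under 0.05. Their median was 0.38, or 0.23 without CVST-2d-5 and 0.05 by voom. Mbp, the myelin basic protein, had a difference of 0.32 ± 0.23 (adjusted p = 0.465).

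Several rising genes were below sham at 2 d and at or above sham at 7 d. Col11a2, a fibrillar collagen chain and the gene of smallest p, measured 10.3, 13.4, 12, 7.31 and 10.6 CPM at 2 d and 34, 25.6, 25.4, 39.3 and 37.1 CPM at 7 d. Every 2 d sample lay below the sham range of 21.6 to 27.6 CPM, and 3 samples at 7 d above it (1.59 ± 0.18, adjusted p = 0.0162). Appl2, an endosomal adaptor protein, measured 62.9, 68.3, 66.6, 60.6 and 72 CPM at 2 d and 100.3, 104, 108, 141 and 107 CPM at 7 d, with sham at 91 to 101 CPM (0.76 ± 0.10, adjusted p = 0.0162). Both were called in 9 of the 10 fits without a library.

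Gldc and Gpm6b had the same order of levels. Gldc, the glycine decarboxylase of the glycine cleavage system, measured 13.4, 17.5, 16.6, 13 and 24.6 CPM at 2 d and 29.6, 37.2, 36.2, 43.8 and 30.6 CPM at 7 d, with every 2 d sample below the sham range of 25.3 to 35.1 CPM (1.06 ± 0.18, adjusted p = 0.033, called in 2 of the 10 fits). Gpm6b, a membrane glycoprotein of neural cells, measured 582, 650, 650, 581 and 817 CPM at 2 d and 1049, 973, 979, 1130 and 842 CPM at 7 d against 841 to 978 CPM in sham (0.60 ± 0.11, adjusted p = 0.049).

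Of 15 homeostatic astrocyte genes, which serve glutamate uptake and coupling between astrocytes, 0 were called by edgeR, 7 were higher and 0 lower at an unadjusted p under 0.05, 6 were called by DESeq2 and 4 by voom (median 0.38). Gja1, the gap junction protein connexin of astrocytes, measured 107, 158, 146, 86.8 and 160 CPM at 2 d and 212, 223, 236, 345 and 234 CPM at 7 d, on either side of the sham range of 178 to 190 CPM (0.93 ± 0.19, adjusted p = 0.053). Slc1a2, the main glutamate transporter of astrocytes, measured 1304, 1557, 1596, 1461 and 1863 CPM at 2 d and 2938, 2401, 2431, 3264 and 1951 CPM at 7 d (0.74 ± 0.14, adjusted p = 0.0509). Both passed in the fit with sham (adjusted p = 0.0146 and 0.018), where 4 of the 15 were called higher. The 2 d and 7 d samples did not overlap in either gene.

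Lama2 and Cpq rose to levels above every sham sample. Lama2, the laminin chain of muscle and brain basement membranes, measured 10.9, 12.3, 9.81, 9.35 and 11.5 CPM at 2 d and 17.5, 19, 17.2, 19.8 and 21.8 CPM at 7 d, all above the sham maximum of 14.2 CPM (0.83 ± 0.11, adjusted p = 0.0162). Cpq, a secreted and lysosomal carboxypeptidase, measured 8.64, 9.6, 8.96, 6.87 and 7.29 CPM at 2 d and 15.5, 13.8, 16.3, 18 and 19.2 CPM at 7 d, all above the sham maximum of 12.2 CPM (1.00 ± 0.13, adjusted p = 0.0162). Each overlaps an antisense gene model.

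**Figure D3:**
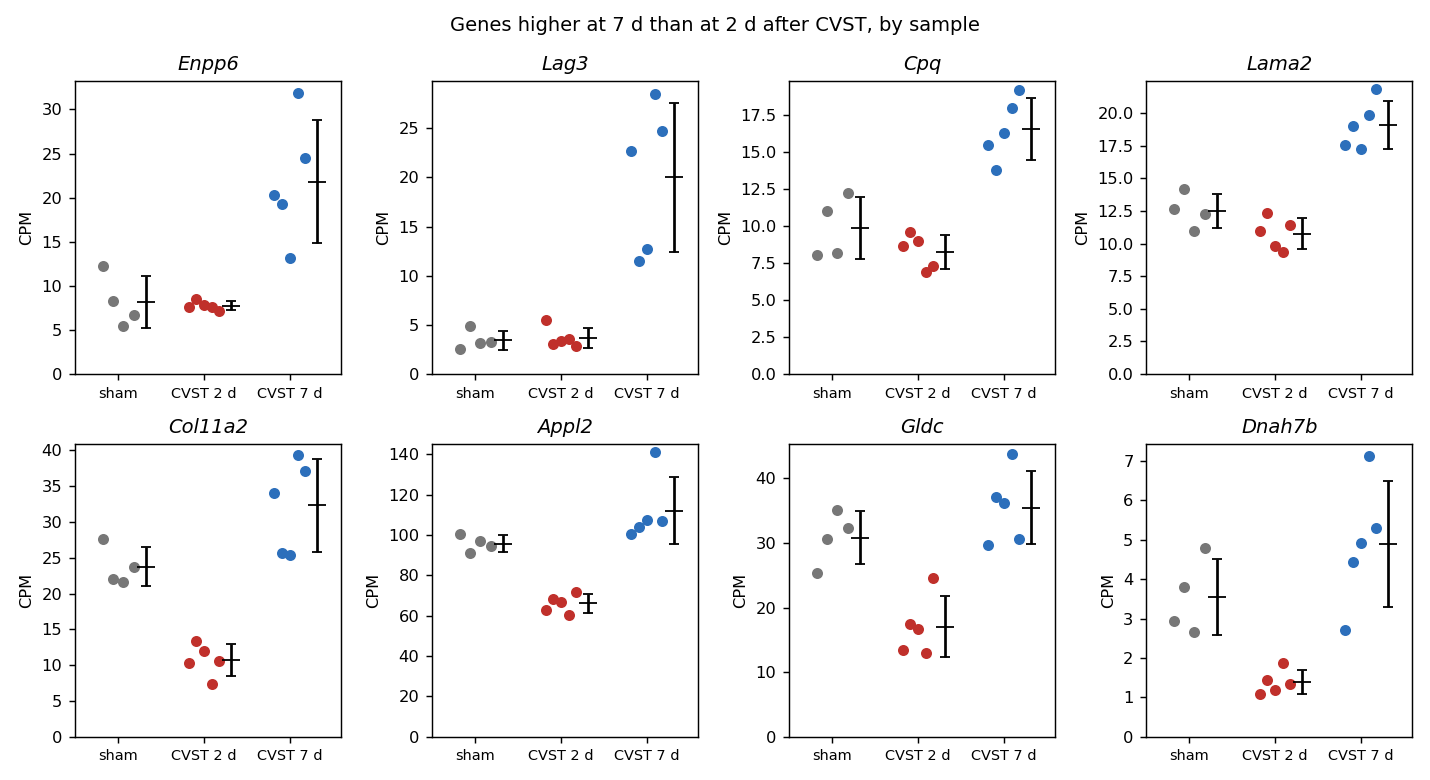
Points are single samples of sham (grey, n = 4), CVST 2 d (red, n = 5) and CVST 7 d (blue, n = 5) for 8 rising genes, in CPM on a linear axis from 0, with the mean and SD beside each group. Enpp6, Lag3, Cpq and Lama2 are near sham at 2 d and above it at 7 d, whereas Col11a2, Appl2, Gldc and Dnah7b are below sham at 2 d.

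Cilium-related genes were also among the largest rises. Dnah7b, an axonemal dynein heavy chain, measured 1.09, 1.45, 1.18, 1.87 and 1.33 CPM at 2 d and 2.72, 4.43, 4.92, 7.14 and 5.29 CPM at 7 d, with sham at 2.65 to 4.79 CPM (1.82 ± 0.26, adjusted p = 0.0191). Kif19a, a kinesin of motile cilia, rose by 1.36 ± 0.23 (adjusted p = 0.033). Of 13 motile cilium genes Dnah7b was the 1 call, and the median was 0.24. Of these 9 had a positive and 4 a negative difference, with 2 higher and 0 lower at an unadjusted p under 0.05. The list's mean log2 CPM relative to sham ran from -0.69 to 0.0022 at 2 d and from -0.87 to 0.31 at 7 d, so the times overlapped. Foxj1, the master transcription factor of motile cilia, ranged from 2.95 to 5.66 CPM at 2 d and from 2.09 to 8.25 CPM at 7 d. Choroid plexus, which is ciliated and can be carried along with cortex, had a summed level of 7 markers of 177 to 790 CPM at 2 d, 177 to 446 CPM at 7 d and 147 to 1309 CPM in sham, and its part in the result was not tested.

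The remaining rising genes of the largest size included Fam180a (2.08 ± 0.34), Kcne1l, an accessory subunit of potassium channels (1.91 ± 0.31), Pyroxd2 (1.74 ± 0.33), Pm20d1, a secreted enzyme that conjugates amino acids to fatty acids (1.69 ± 0.31), Atp10b, a lysosomal lipid flippase (1.55 ± 0.21), and Ccdc13, a protein of centriolar satellites (1.18 ± 0.17), at adjusted p of 0.0329, 0.0329, 0.0486, 0.0418, 0.0163 and 0.0163. H1f4, a linker histone, measured 0.231 to 0.468 CPM at 2 d, 0.95 to 1.65 CPM in sham and 1.18 to 1.65 CPM at 7 d apart from CVST-7d-4 with 4.18 CPM (2.48 ± 0.41, adjusted p = 0.0329). H1f4 belongs to a multigene histone cluster and overlaps a neighbouring histone gene, so its counts are uncertain. The non-coding genes 9630013A20Rik (1.81 ± 0.23) and 3110082J24Rik (1.89 ± 0.24) had an adjusted p of 0.0162 each and were called in 9 of the 10 fits without a library.

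The microglial response with the largest differences did not pass. Disease-associated microglia switch on phagocytic and lipid-handling genes downstream of Trem2 and Apoe. Of 24 genes of this state and of lysosomes 0 were called by edgeR, with 13 higher and 0 lower at an unadjusted p under 0.05, 8 higher by DESeq2 and 1 by voom (median 1.18). In the fit with sham 6 were called higher, as were 6 without CVST-2d-5 and CVST-7d-2, against 0 without CVST-7d-5, where the median was 0.53. By voom the median was 0.35. The summed level ran from 2287 to 4347 CPM at 2 d and from 2365 to 16490 CPM at 7 d, with sham at 2094 to 2379 CPM.

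Clec7a (dectin-1), a receptor of this state, measured 1.31, 3.75, 1.37, 0.99 and 0.405 CPM at 2 d and 19.1, 1.52, 12.5, 27.3 and 49.3 CPM at 7 d. CVST-7d-2 was the 1 sample at 7 d that lay among the 2 d samples (3.78 ± 0.78, adjusted p = 0.0533). Without it the difference was 4.07 (adjusted p = 0.035), and without CVST-2d-5 it was 3.53 (adjusted p = 0.0388). Gpnmb, a membrane glycoprotein of phagocytes that take up lipid debris, measured 12.1, 24.5, 10.2, 10.2 and 8.1 CPM at 2 d and 173, 10.3, 56.7, 104 and 742 CPM at 7 d (4.05 ± 0.92, adjusted p = 0.0694). Without CVST-7d-5 its difference was 2.71 (adjusted p = 0.0831) and without CVST-7d-2 it was 4.35 (adjusted p = 0.0361).

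Apoe, the lipid carrier of astrocytes and activated microglia, measured 836, 757, 643, 427 and 971 CPM at 2 d and 1935, 919, 1732, 3678 and 3470 CPM at 7 d. Sham samples lay at 919 to 1150 CPM, so 4 of 5 samples at 2 d were below and 4 of 5 at 7 d above them (1.69 ± 0.35, adjusted p = 0.0544). Without CVST-7d-2 the adjusted p was 0.035, and without CVST-2d-5 it was 0.0323. Spp1, osteopontin, spread from 9.3 to 4102 CPM at 7 d (2.26 ± 1.22, adjusted p = 0.348), and without CVST-7d-5 its difference was 0.47. P2ry12, the purinergic receptor of resting microglia, measured 37.4, 31.3, 27.4, 23.6 and 10.9 CPM at 2 d and 47.2, 47.2, 47, 65.2 and 53.5 CPM at 7 d, without overlap and with 7 d above the sham range of 33.3 to 42.8 CPM (1.00 ± 0.25, adjusted p = 0.0936).

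Antigen presentation genes had positive medians and 0 calls by edgeR. MHC class II and costimulation (10 genes, median 1.18) had 0 calls by edgeR or voom, 1 by DESeq2 and 6 higher at an unadjusted p under 0.05. The class II median was 0.70 without CVST-7d-5 and 0.72 by voom. MHC class I and peptide loading (20 genes, median 0.51) had 0 by edgeR or voom, 3 higher by DESeq2 and 7 at an unadjusted p under 0.05. By voom the class I median was 0.19. H2-K1, a class I heavy chain, measured 42.8, 52, 41.9, 29.4 and 25.7 CPM at 2 d and 85.7, 32.7, 61.1, 111 and 101 CPM at 7 d, with sham at 19 to 22.7 CPM (1.03 ± 0.30, adjusted p = 0.127). Overlap came from CVST-7d-2, and without it and CVST-2d-5 the difference was 1.11 (adjusted p = 0.0364). Cd74, the class II invariant chain, measured 1.97 to 16 CPM at 2 d and 5.06 to 48.2 CPM at 7 d (1.61 ± 0.61, adjusted p = 0.199).

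Genes induced by interferon were mostly higher at 7 d without passing the test. Of 40 measured 37 had a positive difference, 20 were higher and 0 lower at an unadjusted p under 0.05, and 0 were called by edgeR, against 5 by DESeq2 and 1 by voom (median 0.74, or 0.42 by voom). Rsad2 (viperin), an antiviral enzyme, measured 1.2, 2.76, 1.9, 1.04 and 1.39 CPM at 2 d and 5.92, 2.78, 4.12, 8.86 and 4.35 CPM at 7 d, above all 2 d samples and above the sham range of 0.646 to 2.42 CPM (1.64 ± 0.35, adjusted p = 0.0578, and 0.0425 in the fit with sham). Ifit3, an antiviral RNA-binding protein, measured 15.9, 18.6, 21.5, 12.3 and 10.1 CPM at 2 d and 41.3, 19.2, 32.6, 39.5 and 21 CPM at 7 d (0.97 ± 0.26, adjusted p = 0.101), with an overlap through CVST-7d-2 and CVST-7d-5. Isg15, an interferon-induced ubiquitin-like modifier, did not follow, at 1.21 to 4.68 CPM at 2 d and 1.08 to 3.62 CPM at 7 d (-0.06 ± 0.41, adjusted p = 0.954).

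The promoters of Rsad2 and Ifit3 are printed as examples of the list's known control element, the interferon-stimulated response element. These 2 members were chosen by small p among members whose window held the element, so its presence in both was set by the choice. The element was searched on both strands as GAAA, any 2 bases and GAAA again, and is shown in capitals. The Rsad2 window lies at chr12:26456403-26456702 on the minus strand, with the match beginning 120 bases before the start. The Ifit3 window lies at chr19:34583279-34583578 on the plus strand (RefSeq, GRCm38.p6), with matches beginning 156 and 122 bases before the start. Both genes hold it in the reverse orientation.
Rsad2: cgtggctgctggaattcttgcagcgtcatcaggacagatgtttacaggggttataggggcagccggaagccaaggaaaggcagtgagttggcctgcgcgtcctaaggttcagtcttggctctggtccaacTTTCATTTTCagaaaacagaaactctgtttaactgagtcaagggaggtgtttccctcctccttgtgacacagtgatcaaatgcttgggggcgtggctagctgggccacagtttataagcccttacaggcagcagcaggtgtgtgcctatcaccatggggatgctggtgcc
Ifit3: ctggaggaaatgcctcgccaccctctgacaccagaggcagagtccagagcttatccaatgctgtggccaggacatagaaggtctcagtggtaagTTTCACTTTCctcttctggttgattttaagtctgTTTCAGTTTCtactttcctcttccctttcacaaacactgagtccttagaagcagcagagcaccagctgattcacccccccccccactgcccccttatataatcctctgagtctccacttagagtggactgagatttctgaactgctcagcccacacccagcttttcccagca
Of the 40 interferon genes 29 had a RefSeq window, and 23 of their 34 windows held the element (67.6%), beside 3.35% of the 21263 windows of all protein-coding genes. Of 25 mitosis genes 21 had a window, and 18 of 23 windows held TTTGAA (78.3%, beside 3400 of the 21263 windows) and 19 held CCAAT (82.6%, beside 38.2%), elements known from late cell cycle promoters. Windows of the 26 falling genes held TTTGAA in 12.9% and the response element in 3.23%.

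**Figure D4:**
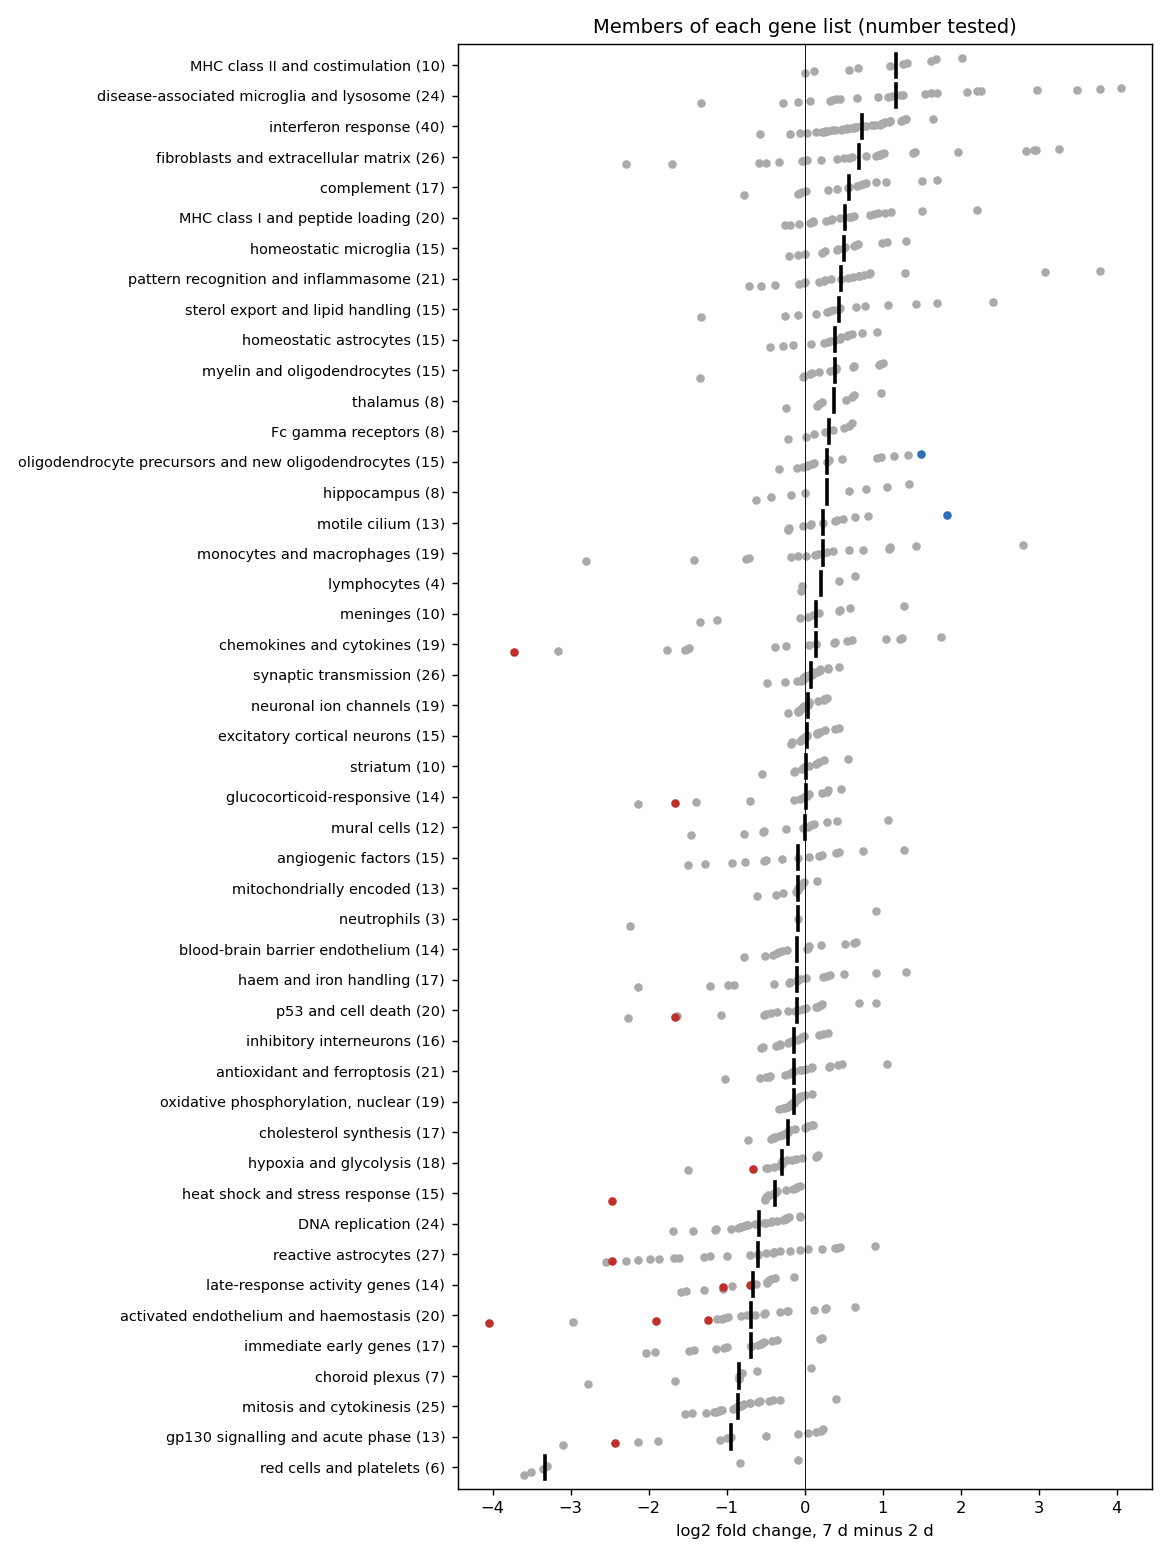
Each line is a gene list with its number of genes tested, each point a member's log2 fold change at 7 d against 2 d, and the black bar the list's median; blue members rose and red members fell at an adjusted p under 0.05. Medians run from -3.33 for red cells and platelets to 1.18 for MHC class II and disease-associated microglia (0.70 and 0.53 without CVST-7d-5), and most members of the lists at either end are grey, as not called. Without CVST-7d-5, monocytes and macrophages moved from 0.23 to -0.28, complement from 0.57 to 0.26 and Fc gamma receptors from 0.31 to 0.06. Lymphocytes moved from 0.20 to 0.11 without it, and hippocampus from 0.28 to 0.45. Without CVST-2d-5, monocytes and macrophages moved to 0.15, lymphocytes to 0.46 and hippocampus to 0.48. Homeostatic microglia then moved from 0.50 to 0.31, thalamus from 0.38 to 0.64 and meninges from 0.15 to 0.32.

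The positive median of the fibroblast and matrix list rested on 1 library. The called matrix genes Col11a2 and Lama2, given above, are not in this list. Of 26 genes 0 were called by edgeR, 5 were higher and 3 lower at an unadjusted p under 0.05, with 1 higher by DESeq2 and 1 higher and 2 lower by voom (median 0.70, or -0.06 without CVST-7d-5). Col1a1, the collagen type I chain, measured 29.3, 28.6, 24.9, 14 and 12.1 CPM at 2 d and 71.4, 20, 45.2, 26.9 and 877 CPM at 7 d (3.26 ± 1.01, adjusted p = 0.143), and 0.91 (adjusted p = 0.236) without CVST-7d-5. The list's mean log2 CPM was 3.21 above sham in CVST-7d-5 and 0.19 to 0.94 above in the other 7 d samples. Markers of meninges, which also hold fibroblasts, summed to 253 to 800 CPM at 2 d, 341 to 723 CPM at 7 d and 527 to 815 CPM in sham, and their part in the result was not tested.

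**Figure D5:**
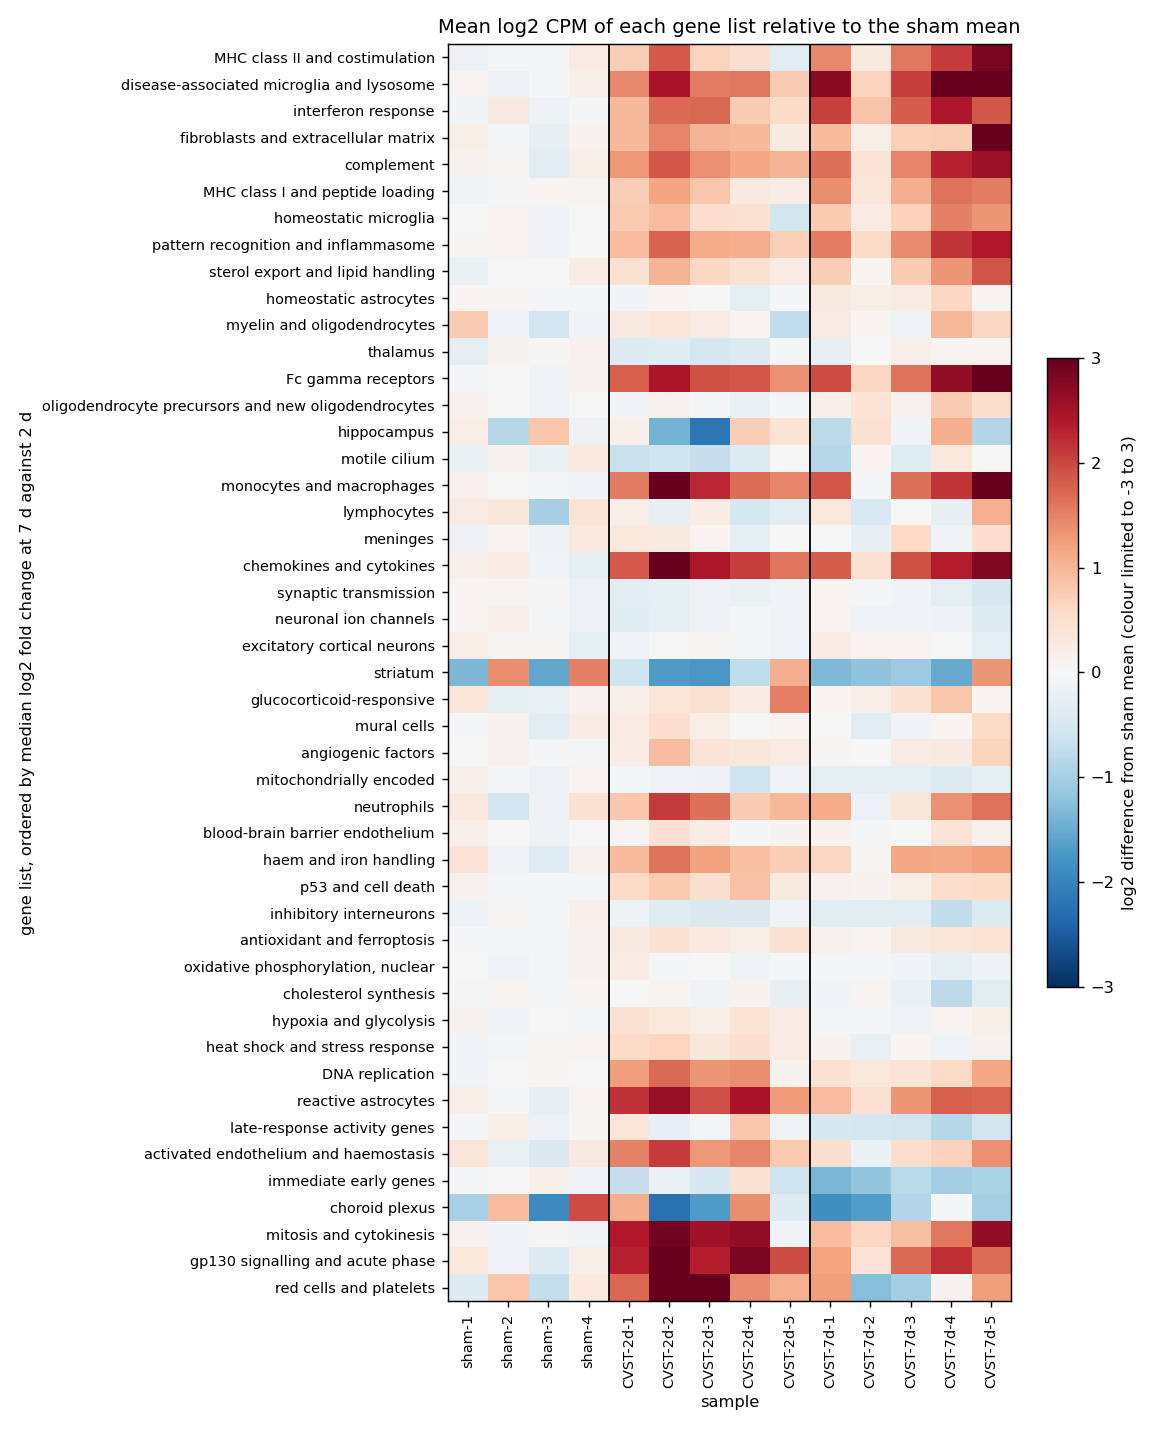
Rows are gene lists and columns the 14 samples, coloured by the list's mean log2 CPM minus the sham mean, limited to -3 to 3. CVST-2d-5 and CVST-7d-2 have the lowest values of their times in the microglia, monocyte, complement and MHC lists, CVST-7d-5 stands out for fibroblasts and extracellular matrix (3.21), and the immediate early list is below sham in all 7 d samples.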

How the data were processed

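RNA of mouse cerebral cortex was sequenced in 14 samples. Per the labels' protocols, RNA was isolated with Trizol, and libraries were prepared with an NEBNext Ultra kit. Per the submitters' processing notes, fastp, HISAT2 and DESeq2 1.16.1 were used with build mm39. The counting tool and annotation release were not given in the sources used here. Deposited by the authors were whole-number read counts per gene and FPKM values, scaled by depth and gene length, the latter used only for checks. Of 55894 entries, 535 without an Ensembl gene (0.203% to 0.278% of counts) were left out.

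The 10 CVST samples were fitted in edgeR 4.0.16 (R 4.3.3) with TMM scaling and filterByExpr. They were tested 2-sided with the quasi-likelihood test, with Benjamini-Hochberg adjustment over all 16331 genes, and called at an adjusted p under 0.05. The SE is the size of the log2 fold change over the square root of F. Log2 CPM used a prior count of 2. The biological coefficient of variation was 0.227, and replicates differed beyond counting noise (chi-square per degree of freedom at least 7.76). The code was tested on simulated counts. Members and the 47 gene lists were chosen with earlier results of these data known. No list was tested, so lists are described by counts and medians. Gene overlaps come from a GENCODE annotation of GRCm38, matched by gene identifier.

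Named genes were the 12 per direction of largest called change with a mean of at least 1 CPM and no overlap, up to 3 called members of each list, a panel given by name and the 5 of smallest p per direction (70 tested, 33 called). For lists without a call, the 2 members of smallest p could be given. Vwf, Stat3, Xbp1, Atf4, Tcf7l2, Gpr17, Bmp4, Ptprz1, Gldc, Gpm6b, Cpq, Lama2, Pold2 and Foxj1 were chosen after their values were seen. Alternatives were the fit with sham, DESeq2 1.42.0 and its size factors, limma 3.58.1 voom with quality weights, no filter, a mean of at least 1 CPM, a replicate block and leaving out each library. A fit without CVST-2d-5 and CVST-7d-2 was added after seeing the data.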

Additional observations from a re-analysis of the deposited data

Results flagged for a closer look

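In 34 of 234 groups of 5 values examined (14.5%), the highest or lowest sample stood apart from the other 4, in that its gap to the nearest one took more than 0.71 of the group's whole range. For independent, normally distributed values chance gives about 1 in 20 such groups. Here single genes were examined in CPM without a log, and every flagged gene was flagged for its highest sample. The groups also share libraries, so the observed share cannot be set against 1 in 20. The share of the range taken by the gap is given for each.

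CVST-7d-5 was the highest 7 d sample for Col1a1 (0.94, 877 CPM against 20 to 71.4 in the others), Spp1 (0.82), Timp1 (0.784, 12.3 against 0.253 to 2.84 CPM), Gpnmb (0.777), Mki67 (0.766), Msr1 (0.727, 25.3 against 0.253 to 7.08 CPM), Ccl2 (0.727) and Mcm5 (0.724). The same library was highest in the mean log2 CPM of the striatum list (0.852) and of the fibroblast and matrix list (0.751). CVST-7d-4 was the highest 7 d sample for Ttr, the transthyretin of choroid plexus (0.874, 104 against 2.41 to 15.2 CPM), H1f4 (0.846), Pm20d1 (0.834), Appl2 (0.824), Gfap (0.77), the complement gene C4b (0.756, 293 against 53.4 to 112 CPM) and Serpina3n (0.737). It was lowest in the lists of mitochondrially encoded genes (0.881), late-response activity genes (0.822) and interneurons (0.753). CVST-7d-3 was highest for Lcn2, a secreted iron carrier-binding protein (0.821, 17.6 against 0.253 to 3.35 CPM).

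At 2 d, CVST-2d-2 was highest for Ccl5 (0.839), Cxcl1 (0.777), Gpnmb (0.753), Selp (0.744) and Clec7a (0.71) and for the angiogenic list (0.782). CVST-2d-5 was lowest in the lists of mitosis (0.838, -0.14 against 2.41 to 2.90 relative to sham), myelin (0.73) and DNA replication (0.722), and highest in the glucocorticoid-responsive list (0.783) and for 9630013A20Rik (0.749). CVST-2d-4 was lowest in the mitochondrially encoded list (0.756), and CVST-2d-1 highest for Lag3 (0.72).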

How the results depend on the processing

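The 81 called genes kept their direction under every alternative in which they were tested, which the lack of overlap between their samples made likely from the start. The 55 higher and 26 lower calls became 261 and 212 with sham in the fit, 83 and 60 without a filter, 438 and 408 by DESeq2 and 346 and 364 by voom. They stayed within 1.5 times with DESeq2 size factors (58 and 30) and a mean of at least 1 CPM (55 and 31). Leaving out 1 library gave 1 to 312 higher and 1 to 380 lower, with the highest counts without CVST-2d-5 and the lowest without CVST-2d-1. Leaving out CVST-2d-5 and CVST-7d-2, chosen after seeing the data, gave 172 and 155. The cause was not tested. Over the called genes named, 379 results under an alternative stayed past the threshold and 214 did not. Over those not called, 613 stayed on their side, 44 passed it and 6 turned direction. These were Spp1 (-0.55) and Mbp (-0.023) by voom, and Isg15 with a replicate block (0.055) and when some single libraries were left out. Over all fits without a library Isg15 ran from -0.26 to 0.21, and only its positive values are turns of direction.

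Same-numbered samples did not deviate together (correlations -0.489 to 0.0927), and 1 of 5 samples at 2 d and 0 of 5 at 7 d correlated best with their own number, so the numbers were not taken to pair samples. The replicate block gave 0 higher and 0 lower calls in edgeR, with 1271 and 1176 genes at an unadjusted p under 0.05. Depth limits genes near 1 CPM and below, such as Selp and Cxcl1 at 7 d.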

Other observations

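Of 15 sterol export and lipid handling genes 0 were called by edgeR, 8 were higher and 0 lower at an unadjusted p under 0.05, 2 were called by DESeq2 and 1 by voom. The median was 0.44, or 0.24 without CVST-7d-5 and 0.26 by voom. Abca1, the cholesterol exporter, measured 31 to 68.9 CPM at 2 d and 51.7 to 252 CPM at 7 d (1.43 ± 0.38, adjusted p = 0.103). Of 21 pattern recognition and inflammasome genes 0 were called by edgeR, 7 were higher and 1 lower at an unadjusted p under 0.05, 3 were higher by DESeq2, and voom gave 1 in each direction (median 0.47, or 0.06 by voom). Tlr9, the endosomal DNA sensor, measured 1.15, 1.12, 1.24, 1.59 and 1.04 CPM at 2 d and 3.76, 1.96, 2.29, 4.29 and 2.72 CPM at 7 d, without overlap (1.29 ± 0.26, adjusted p = 0.053). Slc40a1, the iron exporter ferroportin, measured 6.88 to 12.9 CPM at 2 d and 12.6 to 30.4 CPM at 7 d (1.31 ± 0.27, adjusted p = 0.0544). Of the 17 haem and iron handling genes with it, 7 had a positive and 10 a negative difference (median -0.10), and 1 was higher and 2 lower at an unadjusted p under 0.05.

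Gsr, glutathione reductase, measured 31.9 to 41.8 CPM at 2 d and 24 to 29.6 CPM at 7 d, with sham at 23.8 to 28.7 CPM (-0.45 ± 0.09, adjusted p = 0.0532). Srxn1, which reduces oxidised peroxiredoxin, measured 108 to 152 CPM at 2 d and 66.7 to 106 CPM at 7 d (-0.57 ± 0.12, adjusted p = 0.059). Adm, the vasodilator peptide adrenomedullin, measured 2.08 to 6.13 CPM at 2 d and 0.995 to 1.67 CPM at 7 d (-1.49 ± 0.29, adjusted p = 0.0518). Of 21 antioxidant and ferroptosis genes 0 were called by edgeR, 4 were higher and 7 lower at an unadjusted p under 0.05, with 3 lower by DESeq2 and 5 lower by voom. Of these 8 had a positive and 13 a negative difference (median -0.14, or -0.04 without CVST-2d-5 and -0.07 without CVST-7d-5). Of 15 angiogenic factors 0 were called by edgeR, 5 were lower and 0 higher at an unadjusted p under 0.05, with 4 lower by DESeq2 and by voom. Of these 7 had a positive and 8 a negative difference (median -0.08, or -0.20 without CVST-2d-5, -0.14 without CVST-7d-5 and -0.22 by voom). Cldn5, the tight junction claudin of brain endothelium, measured 29.4 to 52.1 CPM at 2 d and 24.7 to 35.7 CPM at 7 d (-0.36 ± 0.16, adjusted p = 0.258). Arg1, arginase of injury macrophages, measured 0.636 to 23.4 CPM at 2 d and 0 to 3.88 CPM at 7 d (-2.80 ± 1.02, adjusted p = 0.187).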
